A study of Pan troglodytes with 38 samples.

Results

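Antioxidant enzymes turn reactive oxygen species into water and oxygen, and 10 of their genes are described here across the hearts of 38 chimpanzees. The genes were taken by name for their function, and each was found under 1 identifier among the 31373 genes of the gene count table, of which 18040 have a symbol. The study sequenced poly(A) RNA from frozen post-mortem heart tissue of captive chimpanzees, 1 library per animal, to ask how much gene expression varies between individuals. The sample labels put all 38 animals in 1 group and name no treatment. The paper notes that some animals had been exposed to hepatitis viruses in laboratories, and no model here includes this. By the paper's sample table, RNA of 17 animals was extracted in an earlier year and RNA of the other 21 in 2018, and 22 animals were female and 16 male. The table lists each library of the earlier year as one made for a former study and sequenced again, so extraction year and library preparation cannot be told apart, although the methods of the paper give another number of libraries sequenced again. The paper also reports first-degree relatives among the animals, a relation that no model here includes. By the same table the animals came from the centers Yerkes, SNPRC, New Iberia and MD Anderson and from the Little Rock Zoo. New Iberia and MD Anderson occur in the earlier extraction alone and the zoo in 2018 alone. Center is a covariate in no model here.

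Superoxide, which leaks from the respiratory chain of mitochondria and is made by oxidases, is converted to hydrogen peroxide by superoxide dismutases. Hydrogen peroxide is then broken down by catalase, by glutathione peroxidases that draw on glutathione, and by peroxiredoxins that draw on thioredoxin, which thioredoxin reductases keep reduced with NADPH. Heart muscle is rich in mitochondria and works without rest, so these enzymes are much studied in it.

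Levels are given as CPM, here the count of a gene in the gene count table divided by the total of the same animal in the orthologous exon table and multiplied by 1000000. Orthologous exon totals ran from 14408012 in Little_R through a median of 41226040 to 81603350 in 476. Gene lengths were not at hand, so the levels of the enzymes are not ranked against each other, and where the gene with the most CPM of a list is named, length is not taken into account. The lowest count of any of the 10 genes in any animal was 320, for TXNRD2. As a check of the sex labels, 5 Y-linked genes summed to at most 1.04 CPM in the 22 females and to at least 191 CPM in the 16 males.

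A set of 7 libraries stood apart from the other 31. Those of Little_R, 558, 537, 4X0354, 495, 4X0339 and 529 had 14408012 to 26120173 orthologous exon counts, against 31112482 to 81603350 in the others, and are called the low-exon libraries here. By all gene counts they were not set apart to that degree, with 43892814 to 62669620 against 47737843 to 132478050 in the others. In the same 7 animals the 13 protein-coding genes of the mitochondrial genome took 42.99% to 60.1% of the gene counts, against 17.2% to 40.04% in the others. All 7 belonged to the 2018 extraction. The limit of 30000000 counts that separates them was chosen after the data were seen, and many results are given with and without these animals.

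The 3 superoxide dismutases differ in where they act. SOD1, the copper and zinc enzyme of the cytosol (ENSPTRG00000013847), had its lowest level of 197 CPM in 4X0267, a median of 318 CPM and its highest level of 1014 CPM in Little_R. Little_R lay far above all others, since the next animal, 724, had 465 CPM. SOD2, the manganese enzyme of the mitochondrial matrix (ENSPTRG00000018757), went from 121 CPM in 4X0354 through a median of 255 CPM to 898 CPM in 570. The next animal below 570 was 338 with 605 CPM, so a pair of animals of the earlier extraction formed the upper end of SOD2. SOD3, the secreted enzyme of the extracellular matrix (ENSPTRG00000015956), had 48.9 CPM in 503, a median of 108 CPM and 679 CPM in 676. The highest SOD3 level was 13.9-fold the lowest, and 676 stood well above the next animal, 4x0430 with 332 CPM.

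Between extraction years the levels of each dismutase overlapped. SOD1 had 218, 295 and 386 CPM as lowest, median and highest of the 17 animals of the earlier extraction. Its 21 animals of 2018 had 197, 358 and 1014 CPM, and 7 of them were above the highest of the earlier 17. For SOD2 the values were 155, 276 and 898 CPM in the earlier extraction. In 2018 SOD2 had 121, 239 and 432 CPM, and 15 of 21 animals were below the earlier median. The medians of SOD3 were close, 112 CPM in the earlier extraction and 108 CPM in 2018, while its range was wider in 2018, from 48.9 to 679 CPM against 74.4 to 332 CPM.

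Catalase, CAT (ENSPTRG00000003496), breaks hydrogen peroxide down directly, mostly in peroxisomes. Its level was lowest in Little_R at 40.9 CPM, had a median of 184 CPM and was highest in 338 at 475 CPM, an 11.6-fold range. In the other 31 libraries CAT had 97.0, 201 and 475 CPM as lowest, median and highest. In the 7 low-exon libraries it had 40.9, 83.0 and 184 CPM. Of these 7 animals, 6 were below each of the other 31, and all 7 were below the median of the 31, with the orthologous exon totals and also with TMM-scaled totals of the gene counts. Markers of cell types, described below, also differed in these animals. Summed cardiomyocyte markers had a median of 66827 CPM in the 7 and 119358 CPM in the other 31, and fibroblast markers had 6070 and 1977 CPM. Endothelial markers had 3893 and 1513 CPM, NF-kB and cytokine genes 1300 and 284 CPM and erythrocyte markers 1011 and 161 CPM. The part of these cells in the levels of CAT, GPX3 and PRDX3 was not tested. The medians of CAT by extraction year were alike, 184 CPM in both.

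The 3 glutathione peroxidases, all of them selenoproteins, divide the work by place and substrate. GPX1, the form of cytosol and mitochondria (ENSPTRG00000014921), had 79.1 CPM in 462, a median of 146 CPM and 287 CPM in 495. Its lowest and highest levels were 3.63-fold apart, and the medians were 148 CPM in the earlier extraction and 144 CPM in 2018. GPX4, which reduces lipid peroxides in membranes (ENSPTRG00000010184), had 81.6 CPM in 4X0354, a median of 150 CPM and 280 CPM in 549. In 2018, 17 of 21 animals had less GPX4 than the earlier median of 164 CPM.

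GPX3, the secreted form found in plasma (ENSPTRG00000017427), had the widest range of the 10 genes over all 38 animals, which rested on 4X0354. Its level was 24.6 CPM in 4X0354, 389 CPM at the median and 1227 CPM in 549, a 49.8-fold range. The animal 4X0354 was alone at the bottom, since the next lowest, 529, had 123 CPM, and without it the range of GPX3 was 10-fold. In the other 31 libraries that range was 5.02-fold, and 3.61-fold without 549. SOD3 had 13.9-fold there and 6.79-fold without 676, TXNRD1 5.97-fold and 5.94-fold without 4x0025, and SOD2 5.78-fold and 3.90-fold without 570. In the earlier extraction the lowest, median and highest GPX3 levels were 266.7, 465 and 1227 CPM. In 2018 they were 24.6, 309 and 709 CPM, with 15 of 21 animals below the earlier median and 8 below the earlier lowest. In the 7 low-exon libraries GPX3 had 24.6, 150 and 709 CPM, and in the other 31 it had 244, 408 and 1227 CPM. Of the 7, 5 were below each of the 31, but 495, also 1 of the 7, had the highest GPX3 level of the 2018 extraction.

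PRDX3, the peroxiredoxin of the mitochondrial matrix (ENSPTRG00000002992), had 52.3 CPM in Little_R, a median of 290 CPM and 461 CPM in 724. Its medians by year were near each other, 292 CPM in the earlier extraction and 288 CPM in 2018. In the 7 low-exon libraries PRDX3 had 52.3, 107 and 235 CPM, against 176, 321 and 461 CPM in the other 31. As with CAT, all 7 were below the median of the 31, and 5 were below each of them. TXNRD1, the thioredoxin reductase of the cytosol (ENSPTRG00000005378), had 75.2 CPM in Little_R, a median of 227 CPM and 664 CPM in 4x0025. At the upper end 4x0025 was close to 724 with 662 CPM and 495 with 657 CPM, and these 3 animals stood above the rest. TXNRD2, the mitochondrial thioredoxin reductase (ENSPTRG00000014069), had 21.6 CPM in 529, a median of 34.1 CPM and 50.4 CPM in 4X0339. It was the steadiest of the 10 genes, with a 2.34-fold range.

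**Figure D1:**
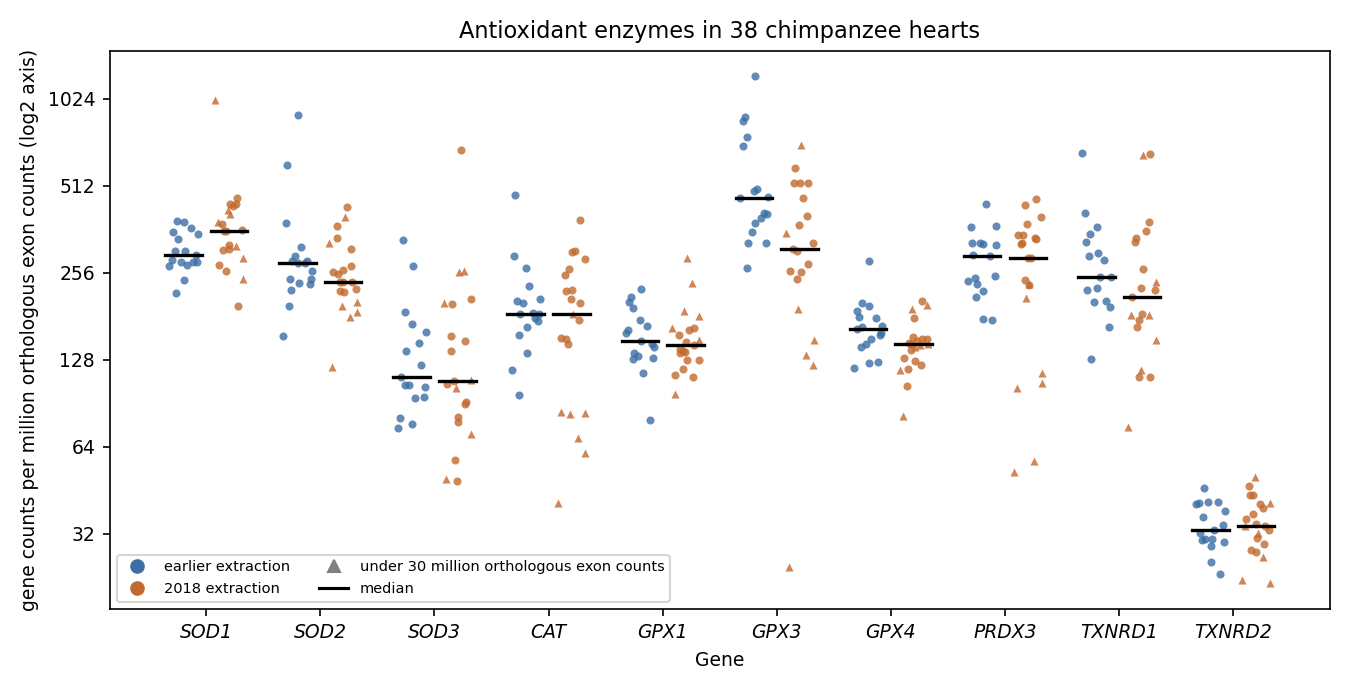
Level of each antioxidant enzyme gene in 38 chimpanzee hearts, as CPM on a log2 axis, with animals of the earlier extraction in blue, of 2018 in orange, the 7 low-exon libraries as triangles and the median of each year as a line. Several triangles lie at the bottom for CAT, GPX3 and PRDX3, and 1 triangle, Little_R, lies at the top for SOD1.

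The spread of each enzyme was set beside that of all genes. The SD of log2 CPM (with 0.5 CPM added) had a median of 0.46 over the 10243 genes whose median level reached 6 CPM, and 6 of 10 members were above it, a share near that of any genes. GPX3 had an SD of 0.97, larger than that of 92.5% of the genes. SOD3, CAT, PRDX3 and TXNRD1 had larger SDs than 84.5%, 82.3%, 81.6% and 79.3% of them. SOD2 was nearer the middle with 59.4%. SOD1 with 37.3%, GPX1 with 27.6%, GPX4 with 18.3% and TXNRD2 with 13.6% were below the median. Part of the spread rested on the low-exon libraries. In the other 31 animals the median SD of the same genes was 0.34, and the SD of GPX3 was 0.57, larger than that of 85.2% of them. SOD3, TXNRD1, CAT and SOD2 then had larger SDs than 93.4%, 87.5%, 77.4% and 76.2% of the genes. PRDX3 dropped to the middle with 55.7%, and SOD1, GPX1, GPX4 and TXNRD2 had 37.7%, 38.4%, 34.5% and 21.4%.

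A measure named dispersion was modelled on the one of the paper, but computed here from the gene count table and without gene lengths. It is the distance of a gene's overdispersion from the trend of all genes with the same mean expression, on a natural logarithm scale. Over 13121 genes its median was -0.13, and over the 10 members it was 0.49 with a jackknife SE of 0.304 over animals, and 0.26 at the lowest with 1 animal left out. The same 6 members that varied most on the log2 scale had dispersion above the trend, while 5 members were above it in 2018 alone and 7 in the earlier extraction alone. SOD3 had 1.22, higher than 90.2% of the genes, and GPX3 had 1.12, higher than 88.7%. CAT had 0.85, TXNRD1 0.84 and PRDX3 0.66. PRDX3 had 0.44 without Little_R. SOD2 had 0.32, but -0.14 without 570, the animal with the highest SOD2 level. Below the trend, SOD1 had -0.17 and, without Little_R, -0.91. GPX1, GPX4 and TXNRD2 had -0.45, -0.70 and -0.99. No test was made of the members against the other genes.

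Extraction year was compared with an edgeR model that includes sex, fitted to 15790 genes, with a gene called at an adjusted p under 0.05. Of all genes tested, 16.1% were called, 1775 higher and 761 lower in 2018. Among the 10 enzymes 1 was called, GPX3, which was lower in 2018 by a log2 change of -0.72 (SE 0.25, adjusted p = 0.0468, n = 17 and 21). GPX4 had a log2 change of -0.26 (SE 0.12) and an unadjusted p of 0.033, with an adjusted p of 0.125. The median log2 change was -0.13 over the members and -0.01 over all genes.

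The call of GPX3 was close to the threshold. DESeq2 also called it, with a log2 change of -0.71, while the other 7 settings tried did not, and adjusted p over all 8 was between 0.0314 and 0.191. Without the 7 low-exon libraries, an alternative chosen after seeing the data, its log2 change was -0.43 with an adjusted p of 0.15. In animals of the Yerkes center alone, 9 of the earlier extraction and 12 of 2018, its log2 change was -0.77. This was near that over all animals, with an adjusted p of 0.191 in the smaller set. With 1 animal left out at a time GPX3 was called in 17 of 38 fits, with log2 changes from -0.78 to -0.59. The call was lost without each of 317, 338, 4x0025, 4X0095, 4X0267, 4X0339, 4X0357, 4x0430, 4x523, 522, 529, 537, 549, 554, 554_2, 558, 570, 623, 676, 88A020 and Little_R, with an adjusted p of at most 0.102.

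Females and males were compared in the same model. Of all genes 0.215% were called, and 0 of the 10 enzymes by edgeR or by DESeq2. An unadjusted p under 0.05 was reached in edgeR by 1330 of 15790 genes, among them 1 of the 10 enzymes, SOD2. Its log2 difference was -0.36 for males minus females (SE 0.16, p = 0.0341, adjusted p = 0.544). SOD2 had a median of 279 CPM in the 22 females, with a range of 155 to 898 CPM. In the 16 males its median was 236 CPM and its range 121 to 401 CPM, which lies mostly within that of the females. Fibroblast markers, described below, had a median log2 difference of 0.91 for males minus females, with 7 of 10 at an unadjusted p under 0.05, 0 called by edgeR and 1 by DESeq2. The r of SOD2 with these markers over the 38 animals was -0.387 (p = 0.016, adjusted p = 0.0734), and their part in the SOD2 difference was not tested. Of the low-exon libraries, those of 558 and Little_R were from females and the others from males. SOD2 had a median of 196 CPM in these 7 libraries and 260 CPM in the other 31, and fibroblast markers had 6070 and 1977 CPM. The part of these libraries in the sex difference was not tested.

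RNA integrity was tested as a slope, with sex and extraction year in the model. Of 16462 genes 0% were called by edgeR, with 2276 at an unadjusted p under 0.05, and 0 of the 10 enzymes were called by edgeR or by DESeq2, which called 201 genes. None of the 10 had an unadjusted p under 0.05 by edgeR. The largest slope in size was that of SOD3, a log2 change of -0.11 per unit of RNA integrity (SE 0.08), and the smallest were those of SOD1 and GPX3, 0.00 each. A slope that misses the threshold does not show that integrity has no part in the levels.

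How the enzymes varied together was described with Pearson's r and Spearman's rho of log2 CPM over the 38 animals, for all 45 pairs. A pair is called when both, by 2-sided permutation tests, have an adjusted p under 0.05 over the 45 pairs. This joint rule was met by 4 pairs, all positive, while 10 pairs passed on r alone and 4 on rho alone. Among all pairs of 10243 genes 28.1% had an r at least as large in size as the smallest called, 0.416, against 9 of the 45 member pairs, or 20%. The median size of r was 0.270 over all gene pairs and 0.220 over the member pairs.

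CAT and PRDX3, both breaking down hydrogen peroxide in organelles, had the highest r, 0.799 (p = 1e-05, the smallest the permutations can give, adjusted p = 0.00045), and rho was 0.624 (p = 5e-05, adjusted p = 0.00225). Most of the low-exon libraries were at the lower end of both genes, but 495 was at the median of CAT. Without Little_R and 529, the farthest from the median of CAT, r was 0.706. Within extraction years r was 0.412 in the earlier and 0.873 in 2018. In the other 31 animals r was 0.421 with an adjusted p of 0.131 and the pair was not called.

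SOD2, which makes hydrogen peroxide in the mitochondrial matrix, was called with CAT and with GPX3. With CAT its r was 0.543 (p = 0.00052, adjusted p = 0.0117) and rho 0.572 (p = 0.00024, adjusted p = 0.0036). This r was 0.494 without 570 and 338, 0.75 within the earlier extraction, 0.458 within 2018 and 0.583 without the low-exon libraries, where rho had an adjusted p of 0.0927. The relation of SOD2 and CAT thus had a similar r with and without the low-exon libraries, though it missed the threshold in the smaller set. With GPX3, the r of SOD2 was 0.520 (p = 0.00323, adjusted p = 0.0265) and rho 0.480 (p = 0.00215, adjusted p = 0.0242). That r was 0.583 without 570 and 338, 0.0703 within the earlier extraction, 0.830 within 2018 and 0.179 without the low-exon libraries. So SOD2 and GPX3 were called together over all animals but had an r near 0 in the earlier extraction. The call ended without each of 338, 4X0095, 4X0339, 4X0354, 4X0357, 529, 537, 558 and 623, with r between 0.393 and 0.583 over all 38 omissions.

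GPX3 and TXNRD1, a secreted peroxidase and a cytosolic reductase that are both selenoproteins, had r = 0.416 (p = 0.00988, adjusted p = 0.0462) and rho = 0.566 (p = 0.00022, adjusted p = 0.0036). This r was 0.517 without 4X0354 and 529, 0.412 in the earlier extraction, 0.364 in 2018 and 0.430 without the low-exon libraries. Its size was thus alike across these sets, near the threshold. With values centred within year r was 0.374, and after removing sex, year and RNA integrity it was 0.394, and the pair was called in neither. The call also ended without each of 338, 456, 462, 476, 495, 4x0043, 4X0095, 4X0267, 4X0333, 4X0339, 4X0357, 4x0430, 4X0550, 4x523, 549, 554_2, 558, 570, 623, 676, 724, 88A020 and 95A014, with r at least 0.387. The pairs CAT with PRDX3 and SOD2 with CAT were called in all 38 omissions. Without the low-exon libraries 1 pair was called, GPX1 with GPX3, with r = 0.633 (adjusted p = 0.0036) against 0.357 over all animals.

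Marker genes of heart cell types were set beside the enzymes, since a bulk sample mixes cells, and fewer cells of a type and less RNA per cell cannot be told apart in it. The cardiomyocyte list, 12 of 12 genes used, summed to 14926 CPM in Little_R and 154650 CPM in 522, and its gene with the most CPM was MYH7, the slow myosin heavy chain, with 652 to 52773 CPM. The labelled heart tissue thus showed its defining markers in every animal. The fibroblast list, 10 of 10 used, summed to 725 to 13542 CPM, led by DCN, and the endothelial list, 9 of 10 used, to 937 to 5381 CPM, led by VWF. The smooth muscle and pericyte list, 10 of 10 used, summed to 670 to 3362 CPM, led by TAGLN. None of the markers in these 4 lists was at 0 in any animal.

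Markers of blood and fat cells and of an acute response were summed in the same way. The macrophage list, 9 of 10 used, summed to 33.7 to 975 CPM, led by C1QA, with MARCO at 0 in some animal. The erythrocyte list, 9 of 10 used, summed to 1.5 to 8954 CPM, led by HBB, with HBD, SLC4A1, AHSP and CA1 among those at 0 in some animal. The neutrophil list, 9 of 10 used, summed to 6.77 to 744 CPM, led by S100A9, with S100A12, CXCR2, MMP8 and MMP9 at 0 in some animal. These 3 lists thus spanned a wide range between animals. The lymphocyte list, 10 of 10 used, summed to 4.84 to 338.7 CPM, led by CD8A, with CD3G and MS4A1 among those at 0 in some animal. The adipocyte list, 10 of 10 used, summed to 728 to 2920 CPM, led by LPL, with ADIPOQ and LEP at 0 in some animal. A list of NF-kB and acute cytokine response genes, 15 of 16 used, summed to 183 to 3818 CPM, led by NFKBIA, with IL1B at 0 in some animal.

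The 10 enzymes were correlated with the mean log2 CPM of these 10 lists and with the mitochondrial share, 110 relations in all, by the same joint rule. It was met by 12 relations, 3 positive and 9 negative, while 19 passed on r alone and 16 on rho alone. PRDX3 had 5 of the 12, CAT 3, GPX1 3 and GPX3 1, and SOD1, SOD2, SOD3, GPX4, TXNRD1 and TXNRD2 had none. No relation with the smooth muscle and pericyte, neutrophil, lymphocyte or adipocyte list met the joint rule. Without the 7 low-exon libraries 3 relations were called, of which 2 were among the 12. Without 537 and Little_R 6 of the 12 ended, CAT with endothelial markers (r = -0.391), GPX1 with endothelial (0.387) and macrophage markers (0.439), GPX3 with the mitochondrial share (-0.528) and PRDX3 with the NF-kB list (-0.641) and erythrocyte markers (-0.424). Relations of at least 0.433 in size were common among all genes for several lists. With the endothelial list 51.1% of the 10243 genes had such an r, with the NF-kB list 45.03% and with the mitochondrial share 37.8%, each against 3 of the 10 enzymes. With the fibroblast and erythrocyte lists 31.7% and 16.5% had it, each against 2 enzymes, and with the macrophage list 4.45%, against 1. The part of the cell types and of RNA quality in the levels of the enzymes was not tested.

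PRDX3, the mitochondrial peroxiredoxin, was higher where cardiomyocyte markers were higher, with r = 0.736 (p = 3e-05, adjusted p = 0.000825) and rho = 0.599 (p = 0.00012, adjusted p = 0.0044). This r was 0.487 without Little_R and 537, 0.425 in the earlier extraction, 0.802 in 2018 and 0.402 without the low-exon libraries (adjusted p = 0.134). Of all 10243 genes, 51.3% had an r of at least 0.433 in size with this list, against 4 of the 10 enzymes. So relations of this size with cardiomyocyte markers were common among genes, and PRDX3 was not compared with the others by a test.

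With 4 other lists PRDX3 had called relations in the opposite direction. For the endothelial list r was -0.784 (p = 1e-05, adjusted p = 0.000367), rho was -0.596 (p = 9e-05, adjusted p = 0.0044), r without Little_R and 537 was -0.618, and r within years, the earlier first, was -0.368 and -0.845. For the fibroblast list r was -0.658 (p = 1e-05, adjusted p = 0.000367), rho was -0.553 (p = 0.00048, adjusted p = 0.0066), r without 537 and 529 was -0.527, and r within years was -0.389 and -0.765. Both relations were weaker without the low-exon libraries, with r of -0.502 and -0.419, and neither was called there. For the NF-kB and cytokine list r was -0.719 (p = 4e-05, adjusted p = 0.00088), rho was -0.543 (p = 0.00046, adjusted p = 0.0066), r without 529 and Little_R was -0.599, and r within years was -0.572 and -0.767. For the erythrocyte list r was -0.433 (p = 0.00689, adjusted p = 0.0421), rho was -0.467 (p = 0.0035, adjusted p = 0.0385), r without 529 and MD_And was -0.364, and r within years was -0.0664 and -0.569. The erythrocyte relation was not called with values centred within year, where r was -0.404, nor after removing sex, year and RNA integrity, where it was -0.413. In the other 31 animals the NF-kB and erythrocyte relations had r of -0.497 and -0.159 and were not called. The erythrocyte relation also lost its call without each of 317, 338, 476, 4X0550, 4x523, 503, 522, 529, 537, 549, 554_2, 558, 623, 724, 88A020 and MD_And, with r between -0.481 and -0.368, and with TMM scaling, where r was -0.384.

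CAT was lower where fibroblast markers were higher, and of the 12 relations this was the one called both without the low-exon libraries and in all 38 omissions of 1 animal. Its r was -0.718 (p = 1e-05, adjusted p = 0.000367), rho was -0.700 (p = 3e-05, adjusted p = 0.0033) and r without 537 and 529 was -0.642. Within years r was -0.721 in the earlier extraction and -0.752 in 2018. Without the low-exon libraries r was -0.678 and rho -0.683, with adjusted p of 0.0033 and 0.0044. Fibroblast markers summed to 1244 to 13542 CPM in the 7 animals and to 725 to 5615 CPM in the other 31.

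CAT was also called with 2 further lists. For erythrocyte markers r was -0.553 (p = 0.00024, adjusted p = 0.0033), rho was -0.572 (p = 0.00023, adjusted p = 0.00495), r without 529 and MD_And was -0.519, and r within years was -0.365 and -0.644. For endothelial markers r was -0.595 (p = 0.00013, adjusted p = 0.00204), rho was -0.452 (p = 0.00475, adjusted p = 0.0462), r without Little_R and 537 was -0.391, and r within years was -0.160 and -0.682. Neither was called without the low-exon libraries, where r was -0.393 and -0.284. The endothelial relation had r = -0.558 after removing sex, year and RNA integrity and was not called. It also lost its call without each of 317, 389, 476, 4x0025, 4x0043, 4X0095, 4X0354, 537, 549, 558, 724, 88A020, 95A014, Little_R and MD_And, with r between -0.652 and -0.490.

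GPX1 ran against cardiomyocyte markers, with r = -0.560 (p = 0.0003, adjusted p = 0.00367) and rho = -0.580 (p = 0.00016, adjusted p = 0.0044). This r was -0.603 without Little_R and 537, -0.583 in the earlier extraction, -0.593 in 2018 and -0.585 without the low-exon libraries, where rho had an adjusted p of 0.0523. It was -0.238 and not called when the levels were scaled by TMM, so it depended on the scale. With endothelial markers GPX1 had r = 0.448 (p = 0.00474, adjusted p = 0.0326) and rho = 0.510 (p = 0.00128, adjusted p = 0.0156). That r was 0.387 without Little_R and 537, 0.445 and 0.503 within years. It was 0.466 without the low-exon libraries (adjusted p = 0.0764) and 0.113 with TMM, and was called in neither. The endothelial call of GPX1 ended without each of 476, 495, 4X0550, 537, 549 and 88A020, with r between 0.358 and 0.597.

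With macrophage markers GPX1 had r = 0.435 (p = 0.00639, adjusted p = 0.0413) and rho = 0.434 (p = 0.00639, adjusted p = 0.0462). This r was 0.327 without 4x0430 and 338, 0.609 and 0.379 within years, 0.563 without the low-exon libraries, where it was called, and 0.335, not called, with TMM. The call ended without each of 317, 338, 389, 438, 476, 495, 4x0025, 4x0043, 4X0267, 4X0357, 4x0430, 4X0550, 4x523, 503, 537, 549, 554_2, 570, 623, 724, 95A014 and MD_And, with r at least 0.383. GPX3 also ran with macrophage markers without the low-exon libraries, with r = 0.655 (adjusted p = 0.0044), and missed the threshold over all 38 with r = 0.421 (p = 0.00976, adjusted p = 0.0537), although rho was 0.562 (p = 0.00027, adjusted p = 0.00495). Within years, the low-exon libraries included, this r of GPX3 was 0.697 in the earlier extraction and 0.0265 in 2018. Macrophage markers themselves differed by year, with summed medians of 194 CPM in the earlier extraction and 84.7 CPM in 2018, and 8 of 9 genes tested were called lower in 2018, as GPX3 was. The part of macrophages in the year difference of GPX3 was not tested.

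The mitochondrial share had its largest r with PRDX3, -0.651 (p = 0.0001, adjusted p = 0.00183), and CAT had -0.564 (p = 0.00034, adjusted p = 0.00374). Both missed the joint rule on rho, which was -0.304 (adjusted p = 0.215) for PRDX3 and -0.240 (adjusted p = 0.345) for CAT. Without the low-exon libraries both r were positive and not called, 0.246 for PRDX3 and 0.312 for CAT. GPX3 alone met the rule, with r = -0.551 (p = 0.00049, adjusted p = 0.0049) and rho = -0.448 (p = 0.00509, adjusted p = 0.0462). This r was -0.466 without 537 and 558, -0.139 in the earlier extraction, -0.511 in 2018 and -0.274 without the low-exon libraries, where it was not called. It was not called in 19 of 38 omissions, those of 317, 338, 389, 438, 476, 4x0025, 4X0095, 4X0339, 4X0354, 4X0357, 4x0430, 4x523, 529, 537, 558, 570, 724, Little_R and MD_And, nor with TMM scaling, where r was -0.585. The r of CAT and of PRDX3 with the share changed sign between years. CAT had r = 0.430 in the earlier extraction and -0.778 in 2018, and PRDX3 had 0.455 and -0.831. The animals of the earlier extraction had shares of at most 34.98%, and the 7 animals with the highest shares were all of 2018.

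**Figure D2:**
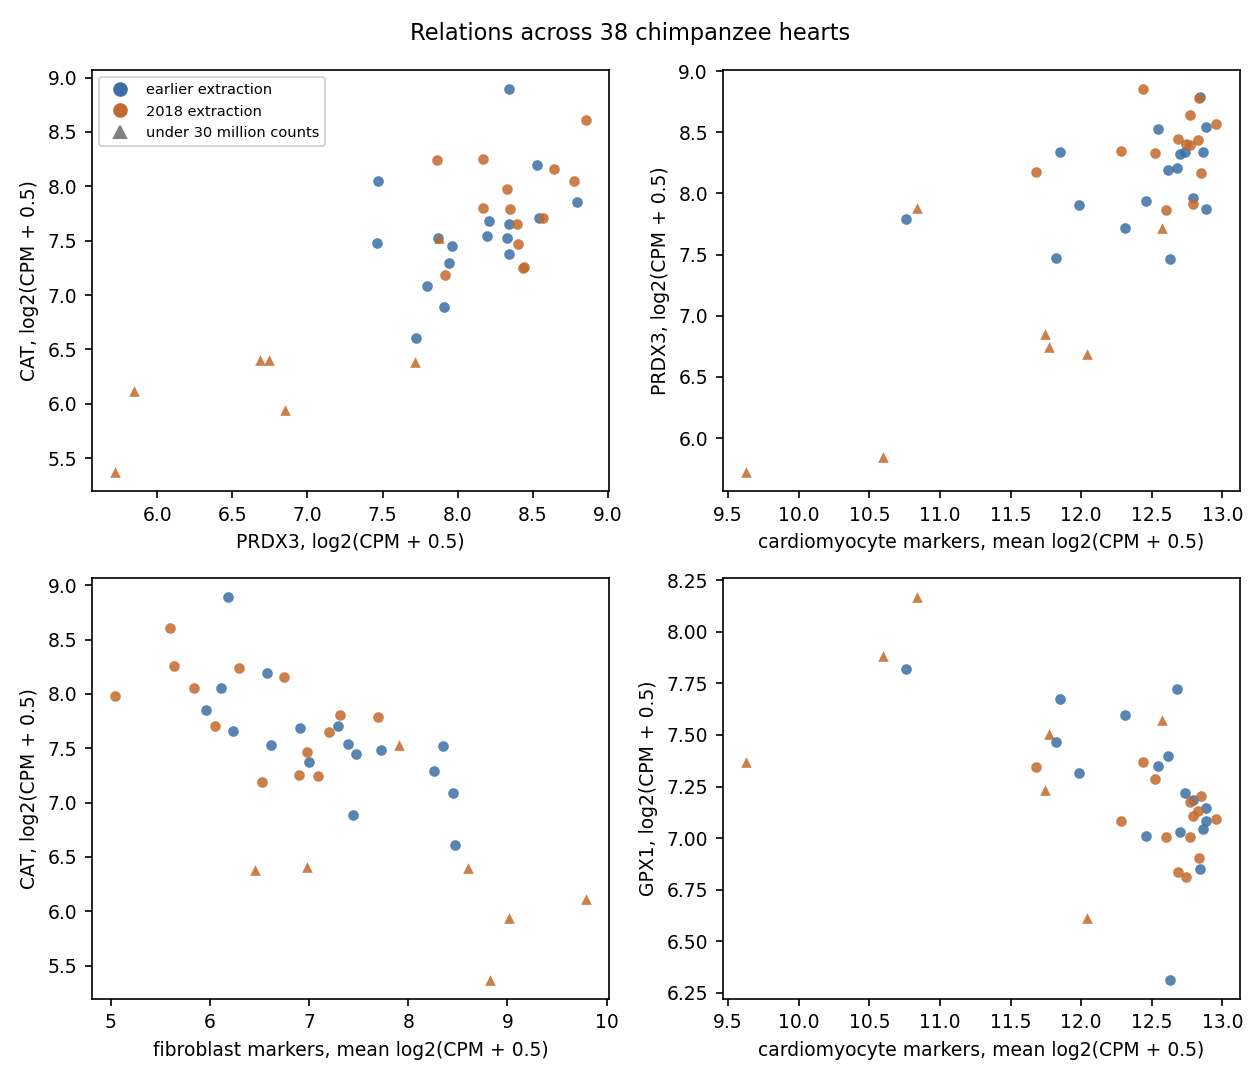
CAT against PRDX3, PRDX3 and GPX1 against the mean log2 CPM of cardiomyocyte markers, and CAT against that of fibroblast markers, all as log2 of CPM with 0.5 added, in 38 animals with the earlier extraction in blue, 2018 in orange and the 7 low-exon libraries as triangles. Most triangles lie at the lower left of CAT against PRDX3, apart from that of 495 at the median of CAT, and r is 0.799 with them and 0.421 without.

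**Figure D3:**
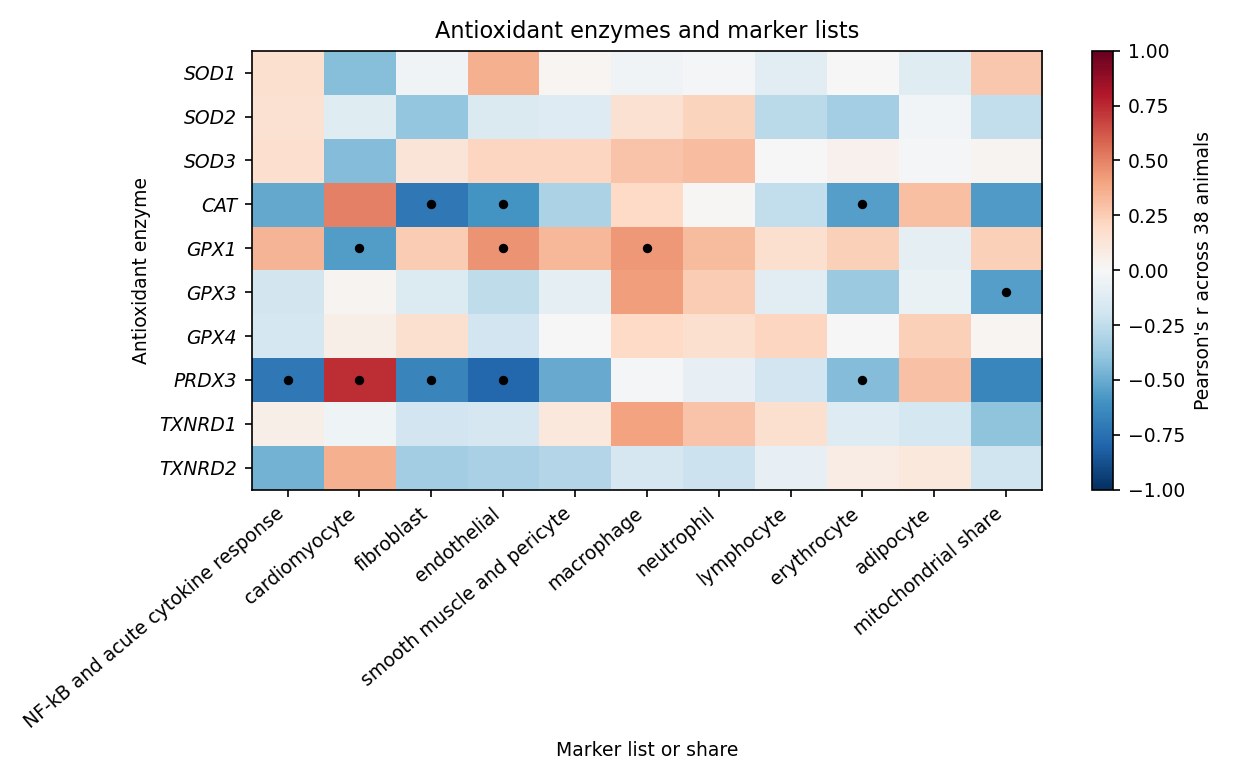
Pearson's r over 38 animals between each antioxidant enzyme gene and the mean log2 CPM of each marker list or the mitochondrial share, from blue for negative to red for positive, with a dot on the 12 relations called. CAT, GPX1 and PRDX3 hold 11 of the dots.

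For each enzyme the 3 genes with the highest rho over the 38 animals were looked up among 10011 genes that have a symbol and whose median level reached 6 CPM. They were picked as the highest, so no test is given. CAT had the closest match of the 10, with ALAD, an enzyme of heme synthesis, at rho = 0.917, followed by HADHA at 0.904 and HADHB at 0.888, the subunits of the mitochondrial trifunctional protein of fatty acid oxidation. Within years the rho of CAT and HADHA was 0.828 in the earlier extraction and 0.948 in 2018. PRDX3 was most like HIBADH, an enzyme of valine breakdown, at 0.873, then ETFA at 0.849 and SDHA at 0.819, which pass electrons to the respiratory chain.

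GPX4 was most like CUEDC2 at 0.815, then CHCHD5 at 0.734 and DECR2, a peroxisomal enzyme of fatty acid oxidation, at 0.711. GPX1 was most like JOSD2 at 0.807, then STAP2 at 0.780 and PALM at 0.773. GPX3 was most like MSRA at 0.729, an enzyme that repairs oxidized methionine, then PPP1R11 at 0.703 and MLX at 0.675. TXNRD1 was most like TBC1D1 at 0.762, PARD3 at 0.756 and FBXO30 at 0.737. TXNRD2 was most like DUSP26 at 0.723, and LONP1, a protease of the mitochondrial matrix, was also among its closest at 0.594. Of these reductases TXNRD1 had the higher rho with its closest gene.

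Among the dismutases SOD2 was most like KIZ at 0.725, BCL2L13, a protein of the outer mitochondrial membrane, at 0.719 and UBE2B at 0.705. SOD3 was most like PRKCSH at 0.633, TADA3 at 0.622 and GLMP at 0.621. SOD1 was most like SRP14 at 0.636, POLR2J at 0.631 and POP5 at 0.629. SOD1 and SOD3 thus had no gene as close as the best match of CAT. For the gene closest to each enzyme over all animals, rho was also taken in the 31 animals without the low-exon libraries. This rho was 0.902 for CAT, 0.810 for PRDX3, 0.821 for GPX4, 0.846 for GPX1 and 0.604 for GPX3. It was 0.697 for TXNRD1, 0.634 for TXNRD2, 0.731 for SOD2, 0.473 for SOD3 and 0.594 for SOD1. In these 31 animals POP5 was closer to SOD1 at 0.673, TADA3 to SOD3 at 0.544 and PARD3 to TXNRD1 at 0.749. For the other enzymes the closest of the genes named stayed the same.

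Genes that work with the enzymes were taken from 7 lists and compared between extraction years in the same edgeR model. Among 16 other peroxiredoxins and thioredoxins, 16 genes of glutathione synthesis, recycling and transfer and 11 genes of NADPH supply, 0 were called by edgeR or by DESeq2, with 0, 1 and 2 genes at an unadjusted p under 0.05 by edgeR. Their genes with the most CPM were PRDX2, a cytosolic peroxiredoxin, with a median of 625 CPM, MGST3, a membrane-bound glutathione transferase, with 470 CPM, and IDH2, which makes NADPH in mitochondria, with 1275 CPM. Over all genes 16.1% were called, and the count of 0 is not read as a result about these lists. CCS, the chaperone that loads copper into SOD1, was higher in 2018 by a log2 change of 0.71 (SE 0.16, adjusted p = 0.00199), with a median of 25.9 CPM in the earlier extraction and 39.2 CPM in 2018. SOD1 itself had a log2 change of 0.24 (SE 0.14, adjusted p = 0.239). MSRA was lower in 2018, with a log2 change of -0.50 (SE 0.15, adjusted p = 0.0165), as was ATP7A, a copper transporter, with -0.35 (SE 0.09, adjusted p = 0.00745), and the other 13 of 16 genes of metallothioneins, copper and repair were not called, MSRB3 among them, the gene with the most CPM of that list with a median of 220 CPM.

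Some genes of the other lists were called, and since 16.1% of all genes were, these counts are not read as a result about the lists. Of 17 selenoproteins and genes of selenocysteine insertion, led by SELENOW with a median of 400 CPM, 3 were called. SELENOO was higher with a log2 change of 0.72 (SE 0.16, adjusted p = 0.00202), SECISBP2, which helps insert selenocysteine as in the glutathione peroxidases, with 0.42 (SE 0.10, adjusted p = 0.00415), and SELENON lower with -0.40 (SE 0.14, adjusted p = 0.0482). The call of SELENON was kept in 6 of 38 omissions, those of 295, 456, 462, 495, 554 and MD_And, with an adjusted p of at most 0.109. Of 14 genes of NRF2 and its targets, led by FTH1, the heavy chain of ferritin, with a median of 1903 CPM, MAFF was higher with 1.62 (SE 0.51, adjusted p = 0.0266) and MAFG with 0.45 (SE 0.16, adjusted p = 0.0452). MAFF was not called without 529 or without Little_R, with a log2 change of 0.79 at the lowest. The call of MAFG ended without each of 438, 456, 462, 495, 4x0043, 522, 529, 623, 88A020, 95A014, Little_R and MD_And, with an adjusted p of at most 0.0805. Of 12 genes that produce superoxide or hydrogen peroxide, led by MAOB with a median of 278 CPM, CYBB, the oxidase of phagocytes, was lower with -0.94 (SE 0.33, adjusted p = 0.043), a call that ended in 18 of 38 omissions, those of 295, 338, 495, 4X0267, 4X0333, 4X0339, 4X0357, 4x0430, 4x0519, 4x523, 537, 554, 554_2, 558, 623, 676, 95A014 and Little_R. Without the 7 low-exon libraries SECISBP2 was still called, with a log2 change of 0.26, and the other 8 called genes of these lists were not. Of these CYBB with -0.998, SELENON with -0.34 and ATP7A with -0.28 had changes near those over all animals. CCS with 0.34, MSRA with -0.27, SELENOO with 0.37, MAFF with 0.17 and MAFG with 0.20 had smaller ones. In animals of the Yerkes center alone, a smaller set, none of the 9 genes was called, with adjusted p of at least 0.0944. SELENON with -0.15, CYBB with -0.57 and MAFF with 1.12 had smaller log2 changes there. SECISBP2 with 0.41, MSRA with -0.50, MAFG with 0.53, SELENOO with 0.63, CCS with 0.59 and ATP7A with -0.30 had changes near those over all animals. DESeq2 called 8 of the 9, all but MAFF with a log2 change of 0.76.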

How the data were processed

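The authors deposited raw counts, used here, and a normalized matrix, not used. The counts were made from single-end poly(A) libraries (TruSeq v2) with STAR 2.6.1b per the submitters' notes. Reads were aligned to the chimpanzee genome per the paper. The gene count table, from STAR, holds 31373 genes, and the orthologous exon table, per its file header from featureCounts 1.6.3, holds 44125. CPM was computed here from both. The columns of human samples and of 1 further chimpanzee, 52 in all, belong to no sample listed for the series and were left out, so species were not compared.

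Differential expression over all genes used the quasi-likelihood test of edgeR 4.0.16, after filterByExpr and TMM, and also DESeq2 1.42.0, in R 4.3.3, with Benjamini-Hochberg adjustment and a threshold of 0.05. Correlations used 100000 permutations in Python 3.11.15 with numpy 2.4.6 and scipy 1.17.1. Dispersion used maximum likelihood in a negative binomial model and a LOESS trend (degree 1, span 0.75) over genes reaching 6 CPM in at least 1 animal, with statsmodels 0.14.6 and pandas 2.3.3. The joint rule for correlations was set during the work. The edgeR fit of extraction year, the permutation test of r and the estimate of overdispersion were tested on simulated data. The other steps were not.

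The enzymes and the lists (230 symbols, of which 10 were absent and 1 was left out for lying on more than 1 identifier) were chosen with earlier results of these data known. All 10 enzymes passed every filter. Named genes are, from each list, at most the 3 with the largest fold called in each direction and the one with the most CPM, and for each enzyme the 3 with the highest rho, except a few whose values are left out. Alternatives were other tools, library sizes, filters, covariates, pseudocounts and sets of animals.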

Additional observations from a re-analysis of the deposited data

How the results depend on the processing

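Of 47 alternatives tried for the 6 main results, omissions of 1 animal not counted, 30 kept the value and 17 did not. A count was kept if it was the same or within 1.5 times. The median dispersion was kept if it moved by less than its jackknife SE of 0.304. Of 228 omissions 29 did not keep the value, 21 of them for extraction year, 7 for pairs and 1 for marker lists. No omission for dispersion is among the 29, but its SE was computed from the same omissions, so hardly any could exceed it. For dispersion this count thus says nothing about stability. The median dispersion of the enzymes was 0.26 at the lowest, against 0.49 over all animals. For extraction year, the enzymes called went from 1 to 0 with the orthologous exon total as library size, with no filter on low counts, with a filter at 6 CPM, with RNA integrity as a covariate, without 537 and Little_R, in animals of the Yerkes center alone and without the 7 low-exon libraries (where 1101 genes were called in all, or 6.86% of those tested, against 2536 or 16.1%). Over all genes the share was 19.04% with DESeq2 and 2.08% in the Yerkes animals, a smaller set. The enzymes called were 0 to 1 with 1 animal left out at a time. For sex and RNA integrity it was 0 under every alternative, each omission included, while the genes called in all were 23 to 52 and 0 to 9 over the omissions. For sex DESeq2 called 115 genes, or 0.653% of those it tested, against 34 by edgeR.

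The pairs called went from 4 to 7 with values centred within year, to 7 with TMM scaling, to 7 after removing sex, year and RNA integrity (3 of the 4 among the 7 in the first and the last of these), to 2 in 2018 alone, to 0 in the earlier extraction alone and to 1 without the low-exon libraries, and were 2 to 7 over the omissions. Relations with marker lists went from 12 to 7 without 537 and Little_R, to 6 in 2018 alone, to 0 in the earlier extraction alone and to 3 without the low-exon libraries, and were 7 to 14 over the omissions. With log2 of the summed CPM of a list in place of its mean log2 CPM, 12 were called, of which 10 were among the main 12. Single years hold 17 and 21 animals, which raises the r needed. The median dispersion of the enzymes was 0.40 to 0.53 over the alternatives and 0.26 to 0.52 over the omissions. The cause of these changes was not tested.

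Another 362 alternatives covered single genes, relations and the numbers of genes called in all for extraction year, sex and RNA integrity. Of these, 232 kept their call or value and 119 lost it with the same direction. A further 10 moved, and each of them was a number of genes called in all. The remaining 1 reversed, the year change of CXCL2, a cytokine gene, which was 1.82 and became -0.11 without the low-exon libraries. Leaving out these libraries, and the omissions for correlations, were chosen after seeing the data. The alternative with orthologous exon counts in place of gene counts was not run, since no symbols were at hand for that table. Each enzyme had at least 320 counts in each animal, and the part of depth was not tested.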

Other observations

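Single animals were at the ends of several enzymes. The animal 529 was among the 5 lowest for 7 of the 10 enzymes. The animal 4X0354 had the lowest level of 3 enzymes, SOD2, GPX3 and GPX4, and was among the 5 lowest for 6. Little_R had the lowest level of CAT, PRDX3 and TXNRD1 and the highest of SOD1. At the other end, 495 was among the 5 highest for 5 enzymes and among the 5 lowest for none, although its library is 1 of the 7 low-exon ones. The animals 549, 623, 676 and 724 were each among the 5 highest for 4.

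Blood and fat cell markers differed by extraction year in single genes. Of 9 macrophage markers 8 were called lower in 2018, led by MARCO, a scavenger receptor, with a log2 change of -3.01 (SE 0.72, adjusted p = 0.00316), C1QB with -1.70 and C1QC with -1.60, which encode complement subunits. Of 8 neutrophil markers 3 were called lower, among them CXCR2 with -2.23 and FPR1 with -1.37. Of 9 lymphocyte markers 1 was called lower, CD4 with -1.74, and of 4 erythrocyte markers 1 was called higher, EPB42 with 1.57. Of 9 adipocyte markers 3 were called higher, PLIN1 with 2.86, CIDEC with 2.64 and FABP4 with 0.79, of which DESeq2 called FABP4 alone. Several of these genes had low levels. Medians, the earlier extraction first, were 1.03 and 0.49 CPM for MARCO, 0.41 and 0.11 CPM for CXCR2 and 1.20 and 3.75 CPM for EPB42. The medians were close for PLIN1, 0.53 and 0.64 CPM, and for CIDEC, 0.44 and 0.54 CPM. C1QB, at 30.5 and 11.2 CPM, and FABP4, at 233 and 472 CPM, had higher levels. CIDEC was not called without 389 or without 4X0267 (0.39 at the lowest), nor was PLIN1 (0.64 at the lowest), which also lost its call without each of 456, 462, 623, 95A014 and MD_And. Of 15 NF-kB and cytokine genes 2 were called higher, NFKBIZ with 1.80 and CXCL2 with 1.82, the latter not without each of 317, 456, 462, 4x0519, 529, 558, 623, 88A020, 95A014, Little_R and MD_And. Of 9 endothelial markers 1 was called higher, EGFL7 with 1.51, and of 10 smooth muscle and pericyte markers 1, PDGFRB with 0.54, a call that ended without each of 495, 537, 558 and 88A020. By edgeR 0 of 12 cardiomyocyte and 0 of 10 fibroblast markers were called, with 0 of each at an unadjusted p under 0.05, and DESeq2 called 0 of each. Over all genes 16.1% were called.

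Some of these calls rested on the 7 low-exon libraries. In the other 31 animals, a set chosen after seeing the data, MARCO with -3.34, C1QB with -1.87, C1QC with -1.77 and CD4 with -1.76 were still called lower. PLIN1 with 3.33, CIDEC with 3.12 and EPB42 with 1.31 were still called higher. The calls of EGFL7 (0.53), NFKBIZ (0.41), CXCL2 (-0.11), PDGFRB (0.15), FABP4 (0.54), CXCR2 (-1.74) and FPR1 (-1.42) were lost. The change of FPR1 was near its -1.37 over all animals, and the part of the smaller number of animals was not tested. In animals of the Yerkes center alone CXCR2 with -2.23 and EPB42 with 1.503 were called, and the others named here were not, among them MARCO, C1QB with -1.36, C1QC with -1.26, CD4 with -1.17, PLIN1 with 0.69 and CIDEC with 0.88.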
